A study of Mus musculus with 50 samples.

Results

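Germline genes encode proteins that build eggs and sperm, and most tissues keep them shut. The set described here holds 48 such genes, drawn up by name from genes known to act in meiosis, in the piRNA pathway or in germ cell identity, and sampled wherever the table of methylation calls lists a CpG under a gene's promoter or body. Of the 48, 31 had at least 1 CpG among the 13722 genes of the table, 18 at the promoter and 27 in the gene body, with 14 genes measured at both. A CpG past the start can count for both, as 81 of the 91 promoter and 168 body CpGs did, and in 8 of the 14 genes the body held no CpG beyond the promoter. They carried 178 of the 205304 CpGs and 49 of the 51038 CpG clusters, a cluster being a run of neighbouring genomic CpGs at most 100 bp apart.

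RRBS (reduced representation bisulfite sequencing, which reads CpG-rich fragments) was applied to the soleus of C57BL/6 mice of both sexes aged 12 weeks. Every mouse was Dnmt3a flox/flox, with LoxP sites around exon 19 of the gene for the de novo methyltransferase DNMT3A. WT mice carried no Cre and mD3AKO mice also carried mCK-Cre, driven by the muscle creatine kinase promoter. That promoter acts late in the differentiation of muscle and heart, so cells of other types in the same tissue keep the gene, and a level is a mean over all of them. Mice were killed after a sham treadmill (rest) or 10, 30 or 60 min after 30 min of running. Of the 21 WT samples in the table, 6 were taken at 60 min and 5 at each other time. Of the 23 mD3AKO samples, 7 were taken at 30 min, 6 at 60 min, and 5 each at rest and 10 min. Samples numbered 1 to 25 were those at rest and 60 min, and samples numbered 26 to 50 those at 10 and 30 min.

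Germline genes are a textbook case of promoter methylation. Many of their promoters are rich in CpGs, and in the early embryo several acquire dense methylation that body tissues then keep. De novo methyltransferases place the mark and DNMT1, guided by UHRF1, copies it at each cell division. In the embryo the repressor complex PRC1.6, which holds E2F6, MGA, MAX and PCGF6, marks many of the same promoters. Muscle fibre nuclei no longer divide. The comparison of WT with mD3AKO muscle asks whether levels at these promoters differ where fibres have lost DNMT3A, and the comparison of times asks whether they move in the hour after exercise.

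Levels are given as methylated calls in percent of all calls, the calls of a promoter (3000 bp before to 1000 bp after the start), gene body or cluster being pooled within a sample. Samples held between 12819404 and 41285655 calls, with a median of 48 to 163 calls per CpG, and every CpG had at least 8 calls in each sample. On an axis running from the mean WT profile (0) to the mean mD3AKO profile (1) over the 532 clusters called for genotype, WT samples lay between -0.22 and 0.29 and mD3AKO samples between 0.68 and 1.33. The clusters were called on these samples, so the axis describes them. RNA was not analysed here, so neither the loss of Dnmt3a transcript nor the silence of the germline genes was measured.

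The measured bases show how unlike the promoters of this set were. Stretches are from the RefSeq copy of mouse GRCm38, on the strand of the gene, and capitals mark the CpGs with calls in every sample. The first group holds highly methylated promoters and a promoter at an intermediate level. The stretches of Asz1 (ankyrin repeat protein of the piRNA machinery, chr6:18108967-18109036, minus strand), Slc25a31 (germ cell ATP/ADP carrier, chr3:40708992-40709055, plus strand) and Dpep3 (testis dipeptidase, chr8:105979151-105979215, minus strand) lie in coding exons. Sohlh2 (helix-loop-helix factor of early germ cells, chr3:55182323-55182425, plus strand), Dazl (germ cell RNA-binding protein, chr17:50293297-50293358, minus strand) and Boll (its relative, chr1:55362927-55363015, minus strand) lie in introns.
Asz1: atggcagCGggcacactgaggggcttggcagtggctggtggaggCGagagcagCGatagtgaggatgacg
Slc25a31: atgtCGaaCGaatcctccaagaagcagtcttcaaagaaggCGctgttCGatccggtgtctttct
Dpep3: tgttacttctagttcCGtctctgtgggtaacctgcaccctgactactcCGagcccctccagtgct
Sohlh2: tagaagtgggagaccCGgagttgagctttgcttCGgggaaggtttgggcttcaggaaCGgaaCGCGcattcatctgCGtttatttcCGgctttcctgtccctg
Dazl: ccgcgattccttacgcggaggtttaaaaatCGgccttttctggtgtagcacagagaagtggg
Boll: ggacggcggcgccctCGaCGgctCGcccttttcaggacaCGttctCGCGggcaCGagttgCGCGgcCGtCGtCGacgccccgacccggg

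The second group holds promoters under 10% in WT muscle, Tdrd6 with single CpGs above that. Syce2 (central element of the synaptonemal complex, chr8:84872371-84872473, plus strand) and Tdrd5 (tudor protein of the piRNA pathway, chr1:156303103-156303201, minus strand) were read here past the start, in intron and, in part for Syce2, noncoding exon. Tdrd6 (tudor protein of germ granules, chr17:43629311-43629491, minus strand) was read in its coding exon. CpGs are frequent in both groups, with 18 in the stretch of Boll and 8 in that of Syce2, not all of them measured.
Syce2: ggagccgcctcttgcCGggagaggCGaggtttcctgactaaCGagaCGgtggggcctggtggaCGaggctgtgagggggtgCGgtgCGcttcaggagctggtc
Tdrd5: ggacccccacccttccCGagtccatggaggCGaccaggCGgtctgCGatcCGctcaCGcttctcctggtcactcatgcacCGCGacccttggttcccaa
Tdrd6: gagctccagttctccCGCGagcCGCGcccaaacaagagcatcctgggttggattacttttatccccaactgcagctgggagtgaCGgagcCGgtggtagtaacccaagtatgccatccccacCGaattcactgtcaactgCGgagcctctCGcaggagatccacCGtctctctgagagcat

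The 18 promoters spread over the whole range of methylation in WT muscle. Their median level was 43.5%, beside 0.84% over all 9761 promoters. With CpGs of at least 20 reads in every sample, which left 9 of the 18, the median was 5.40%, beside 0.783% over the 7443 promoters left. A level of 50% or more was found at 8 of the 18 (44.4%) and at 607 of the 9761 (6.22%). With the minimum of 20 reads these shares were 2 of 9 (22.2%) and 340 of 7443 (4.57%). At the other end, 7 of the 18 (38.9%) lay under 10%, against 8233 of all promoters (84.3%). The name of the set, germline genes silenced by methylation, thus goes against the data at 7 of the 18 promoters, which had little methylation where RRBS read them.

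**Figure D1:**
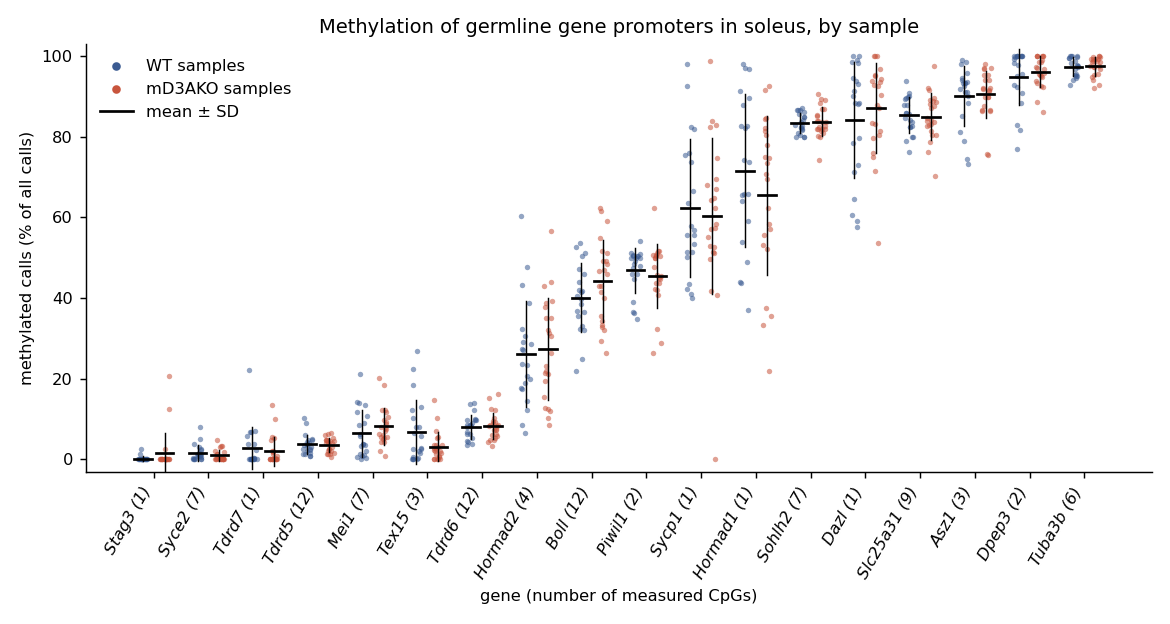
Methylation of the 18 germline gene promoters with measured CpGs, in percent of calls (vertical axis), by gene with its number of CpGs in parentheses (horizontal axis, ordered by WT mean). Points are the 21 WT and 23 mD3AKO samples, and bars mark mean and SD. The samples of the genotypes overlap at every gene, from Tuba3b (means of 97.4% and 97.5%) to Stag3 (0.186% and 1.55%).

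Promoters dense in CpGs are seldom methylated, and this set held several that were. Density was taken as the observed over expected number of CpGs within 250 bases either side of each measured CpG, with a median of 0.6 or more called dense. Of 7230 dense promoters in the table, 46 (0.636%) had a WT level of 50% or more. Among the 9 dense promoters of the germline set there were 4, namely Asz1, Dazl, Slc25a31 and Dpep3. Below that density the shares were 4 of 9 and 561 of 2531 (22.2%). The genes were listed because germline promoters are known for methylation, so the difference in level describes the list.

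Among the highly methylated promoters, Tuba3b, a testis alpha-tubulin gene, stood highest. Its 6 CpGs ranged in WT samples from 92.9% over a median of 97.6% to 100%, and in mD3AKO samples from 92.1% over 98.5% to 100%. Means were 97.4% ± 2.26 (SD, n = 21) and 97.5% ± 2.32 (SD, n = 23). Tuba3b has a near-identical copy, Tuba3a, that had no CpG in the table, and reads of the pair may not always be told apart. Dpep3 lay between 77.1% and 100% in WT (median 98.4%) and between 86.1% and 100% in mD3AKO (median 96.7%), with means of 94.8% ± 7.00 and 96.1% ± 3.78. Asz1 lay between 73.4% and 99.1% in WT (median 92.7%) and between 75.6% and 98.1% in mD3AKO (median 91.6%), with means of 90.1% ± 7.40 and 90.5% ± 5.91. The ranges of the genotypes overlapped over most of their length at these 3 promoters.

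Slc25a31 lay between 76.2% and 93.8% in WT (median 85.7%) and between 70.2% and 97.6% in mD3AKO (median 84.3%). Its means were 85.3% ± 4.50 and 84.9% ± 5.84. Dazl, read at a single CpG with 11 to 200 calls, lay between 57.5% and 100% in WT (median 88.3%) and between 53.6% and 100% in mD3AKO (median 90.4%). Its means were 84.2% ± 14.4 and 87.1% ± 11.2. Sohlh2, over 7 CpGs, was at 83.4% ± 2.44 in WT and 83.8% ± 3.68 in mD3AKO, the former with the next to smallest SD of the 8 promoters at 50% or more.

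The level of a promoter hid differences between CpGs a few bases apart. In Sohlh2 the outermost CpGs, 310 and 381 bases past the start, were at 53.6% and 56.9% in WT, and the 5 between them at 92.4% to 98.9%. In mD3AKO muscle the outer CpGs stood at 56.5% and 62.4%. Both outer CpGs lie in CCGG, the site at which the enzyme MspI cuts DNA for RRBS, and the 5 between them do not. Whether a place at such a cut site affects these levels was not tested. In Slc25a31 the CpG 121 bases past the start was at 41.7% in WT and 52.3% in mD3AKO, while the next, 20 bases on at 141, was at 86.9% and 84.1%. The 12 CpGs of Boll, within 470 to 527 bases past the start, ran from 23.1% to 55.3% in WT.

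Sycp1 and Hormad1 were each read at a CpG upstream of the start. Sycp1 encodes the transverse filament of the synaptonemal complex and Hormad1 a protein of the meiotic chromosome axis. Sycp1 had 62.4% ± 17.0 in WT and 60.3% ± 19.4 in mD3AKO, over 10 to 713 calls a sample. Hormad1 lay between 37.0% and 98.0% in WT (median 73.7%) and between 22.0% and 92.6% in mD3AKO (median 70.7%), over 13 to 192 calls. Their SDs were the largest of the 18 promoters.

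Intermediate levels were found at 3 promoters. Boll lay between 22.0% and 53.7% in WT (median 40.6%) and between 26.5% and 62.3% in mD3AKO (median 45.9%). Its means were 40.1% ± 8.54 and 44.3% ± 10.2. Piwil1, a PIWI protein that binds piRNAs, was read at 2 CpGs far upstream of its start, at 46.9% ± 5.54 and 45.6% ± 7.98. Hormad2, a second axis protein, had 26.2% ± 13.2 and 27.4% ± 12.7 over 4 CpGs astride its start. Its difference turned over between the number sets, mD3AKO minus WT being 10.0 percentage points in samples 1 to 25 and -7.51 in samples 26 to 50.

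At the low end, Stag3, a meiotic cohesin subunit, was at 0% in 19 of 21 WT and 20 of 23 mD3AKO samples at its single CpG. Its highest values were 2.63% in WT and 20.6% in mD3AKO, and with several groups at 0 no odds ratio is given. Syce2 lay between 0% and 8.11% in WT (median 1.09%) and between 0% and 4.85% in mD3AKO (median 0.237%), with means of 1.64% ± 2.03 and 1.02% ± 1.41. Tdrd7, a tudor protein found in germ granules and in the lens, had medians of 0% in both genotypes at its promoter CpG and highest values of 22.2% in WT and 13.6% in mD3AKO. Its means were 2.84% ± 5.18 and 2.10% ± 3.60.

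Tdrd5 lay between 0.836% and 10.3% in WT (median 3.39%) and between 0.551% and 6.50% in mD3AKO (median 4.05%). Of its 12 CpGs, the one at position -458, upstream, was at 29.1% in WT and 27.6% in mD3AKO, and the 11 downstream of the start were at most at 3.77% in WT. Mei1, a gene needed to make meiotic DNA breaks, lay between 0% and 21.1% in WT (median 3.93%) and between 0.939% and 20.3% in mD3AKO (median 7.63%). Tex15, a piRNA factor that guides silencing of transposons, lay between 0% and 27.0% in WT (median 2.92%) and between 0% and 14.8% in mD3AKO (median 2.41%). The last of the 7, Tdrd6, was at 8.17% ± 2.97 in WT and 8.31% ± 3.33 in mD3AKO.

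**Figure D2:**
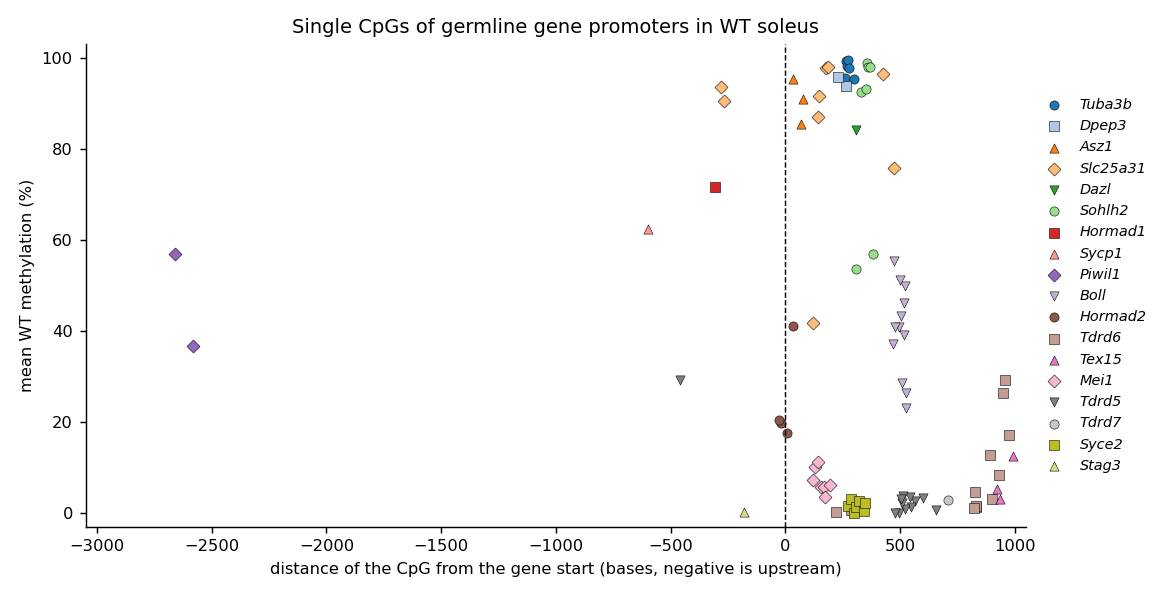
Mean WT level of each of the 91 promoter CpGs of germline genes (vertical axis, percent) against its distance from the gene start (horizontal axis, bases, negative upstream). The symbols mark the genes. Asz1, Dpep3, Tuba3b and most CpGs of Slc25a31 and Sohlh2 lie at the top, Boll lies between 23.1% and 55.3%, and Syce2, Mei1 and the downstream CpGs of Tdrd5 lie near the floor.

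Along Tdrd6 the CpGs nearest the start were the lowest, and the level did not rise evenly from there. The CpGs at 219 and 286 bases were at 0.2% and 0.7% in WT, those at 824 to 833 bases at 1.0% to 4.6%, and that at 959 bases at 29.2%. The next CpGs were lower, at 17.2% (973 bases) and 12.8% (1003 bases). Those at 1232 to 1293 bases were at 44.3% to 65.4%, that at 3478 bases at 94.0%, and the last, at 13167 and 13226 bases, at 76.2% and 80.5%. In mD3AKO muscle the CpGs at 219, 959, 973, 3478 and 13226 bases gave 1.5%, 24.1%, 12.4%, 92.9% and 76.5%.

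In 4 genes a promoter of low level had a methylated body behind it. For 6 genes the table held CpGs in the promoter and others in the body beyond it. Mei1 was at 6.49% ± 5.85 in its promoter and 80.2% ± 5.98 in the rest of its body in WT. The pairs were 8.17% and 53.9% for Tdrd6, 2.84% and 69.1% for Tdrd7, and 6.86% and 68.9% for Tex15. In these 4 genes the body was above the promoter in 44 of 44 samples. Asz1 was high in both, at 90.1% and 92.5%. Sohlh2 had the opposite order, 83.4% against 19.9% ± 18.4 at a single body CpG 26026 bases past the start, with the body above the promoter in 0 of 44 samples.

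Loss of DNMT3A in muscle fibres was not accompanied by a called change at any promoter of the set. In edgeR's quasi-likelihood test on the methylated and unmethylated counts, with Benjamini-Hochberg adjustment over all promoters, 0 of the 18 were called at an adjusted p under 0.05, and 0 of 18 had an unadjusted p under 0.05. The background was 77 called of 9761 promoters (0.789%), of which 76 were lower in mD3AKO, and 803 with an unadjusted p under 0.05 (8.23%). Read against a share that small, a count of 0 in 18 is not a result about these genes. Counts were 0 of 18 as well by edgeR's likelihood ratio test, by limma and by a quasi-binomial model, with 1 promoter under an unadjusted 0.05 in each.

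The lowest p among the promoters belonged to Mei1, at 6.49% ± 5.85 in WT and 8.25% ± 4.61 in mD3AKO. Its log2 odds ratio (mD3AKO over WT) was 0.88 ± 0.45 (SE), with an edgeR adjusted p of 0.641. The difference was 3.25 percentage points in samples 1 to 25 and -0.0908 in samples 26 to 50. Tex15 followed at 6.86% ± 7.86 and 3.21% ± 3.59, a log2 odds ratio of -1.07 ± 0.70 and an edgeR adjusted p of 0.787. The WT mean lay above 20 of the 23 mD3AKO samples. Its differences were -4.39 and -2.93 percentage points in the 2 number sets.

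Syce2 had a log2 odds ratio of -0.90 ± 0.72 and an edgeR adjusted p of 0.875, its differences being -1.64 and 0.472 percentage points in the number sets. Hormad1 had a log2 odds ratio of -0.50 ± 0.47 and an edgeR adjusted p of 0.925, from means of 71.6% ± 19.0 and 65.5% ± 19.7. Its differences were -9.46 and -1.74 percentage points. Boll had a log2 odds ratio of 0.26 ± 0.25 and an edgeR adjusted p of 0.928, its differences being 2.76 and 5.61 percentage points. These 5 were the lowest p values of the set, and the samples of the genotypes overlapped at each.

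The intervals give the precision of these ratios. The 95% interval of the log2 odds ratio ran from -0.35 to 0.43 for Sohlh2, from -0.49 to 0.56 for Slc25a31 and from -0.83 to 0.67 for Asz1. For Tuba3b, Dpep3 and Dazl, nearer to full methylation or with few calls, it ran from -1.18 to 1.39, from -1.56 to 1.08 and from -1.02 to 1.36. Tdrd5 and Tdrd6, near the floor, had intervals from -0.62 to 0.71 and from -0.49 to 0.50. The Tdrd7 promoter gets no interval because groups of its samples sit near 0. On leaving out a sample, its ratio, refitted by separate code for the same model, ran from -7.08 to 5.83. The edgeR adjusted p was 1 at each of these promoters. Standard errors ran from 0.20 to 0.89 over the 17 promoters other than Stag3, the highest being that of Tdrd7.

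**Figure D3:**
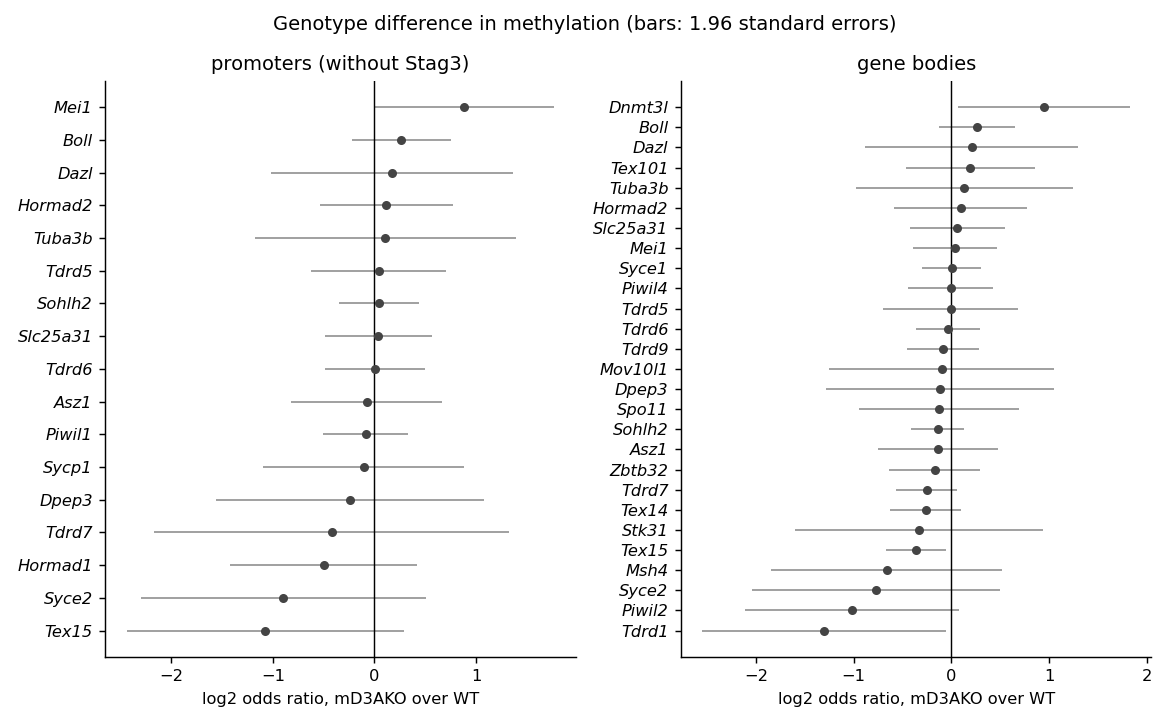
Genotype difference of each promoter (left, 17 promoters without Stag3) and gene body (right, 27) as a log2 odds ratio, mD3AKO over WT (horizontal axis), with 95% intervals as bars. No point passed an adjusted p of 0.05, and Sohlh2, at 0.04 and -0.14, has the shortest bar of both panels. The bar of the Tdrd7 promoter is not reliable, because groups of its samples sit near 0.

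The differences lay on both sides of 0. In the 8 promoters at 50% or more in WT, 3 were lower in mD3AKO and the median difference was 0.224 percentage points. Over the 607 promoters of that class in the table, 385 (63.4%) were lower, with a median of -1.28. Over all 18 promoters the median difference was 0.12 percentage points with 8 lower, beside -0.0771 and 5671 lower of 9761 (58.1%). These medians describe the lists and were not tested.

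Gene bodies, 8 of which held only CpGs of the promoter, had higher levels than promoters, and their genotype differences were likewise not called. Of 27 bodies, 20 were at 50% or more in WT, with a median of 73.9% beside 13.2% over all 12391 bodies. None of the 27 was called by edgeR, and 3 had an unadjusted p under 0.05. The background was 167 called of 12391 (1.35%), 164 of them lower in mD3AKO, and 9.79% with an unadjusted p under 0.05. Counts by the likelihood ratio test, the quasi-binomial model and limma were 0 called, with 4, 3 and 3 bodies under an unadjusted 0.05. The median difference was -0.371 percentage points with 18 of 27 lower, beside -0.268 and 63.9% lower over all bodies.

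The Tex15 body had the lowest p. It lay between 41.1% and 66.6% in WT (median 50.7%) and between 29.8% and 61.3% in mD3AKO (median 46.0%), with means of 51.9% ± 6.95 and 45.8% ± 8.22. Its log2 odds ratio was -0.36 ± 0.16 with an edgeR adjusted p of 0.396. The difference was -6.51 percentage points in samples 1 to 25 and -5.77 in samples 26 to 50, and 16 of 23 mD3AKO samples were below the WT mean.

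Dnmt3l, the catalytically inactive partner that helps DNMT3A methylate germ cell DNA, differed in the other direction. Its 2 body CpGs lay between 48.1% and 100% in WT (median 69.6%) and between 66.0% and 100% in mD3AKO (median 85.9%). Means were 73.9% ± 14.1 and 84.0% ± 10.4, the log2 odds ratio 0.95 ± 0.45 and the edgeR adjusted p 0.465. Differences were 13.2 and 6.77 percentage points in the number sets, and 4 of 23 mD3AKO samples were below the WT mean. Tdrd1, a tudor protein that docks PIWI proteins, lay between 75.8% and 100% in WT (median 99.0%) and between 79.1% and 100% in mD3AKO (median 93.5%). Its log2 odds ratio was -1.30 ± 0.64 with an edgeR adjusted p of 0.502, and its differences were -4.70 and -2.47 percentage points.

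**Figure D4:**
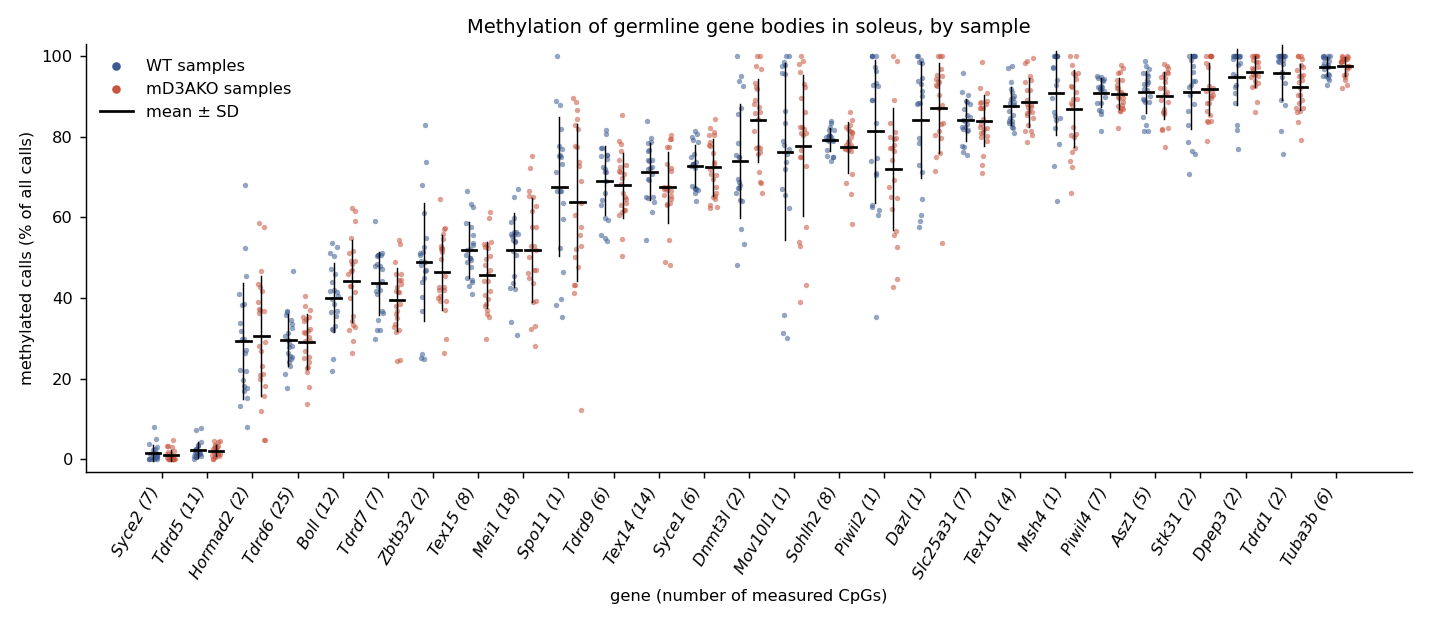
Methylation of the 27 germline gene bodies with measured CpGs, in percent of calls (vertical axis), by gene with its number of CpGs in parentheses (horizontal axis, ordered by WT mean). Points are the 21 WT and 23 mD3AKO samples and bars mark mean and SD. Most bodies lie above 50%, and the samples of the genotypes overlap also where means are farthest apart, at Dnmt3l (73.9% and 84.0%) and Piwil2 (81.3% and 72.0%).

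The other bodies are given by role. In the synaptonemal complex Syce1 was at 72.8% in WT and 72.4% in mD3AKO. Among recombination genes Spo11, which makes the meiotic breaks, was at 67.6% and 63.7%, and Msh4, a crossover factor, at 90.9% and 86.9%. Over the piRNA and tudor genes with body CpGs, 11 in number, WT levels ran from 2.33% to 95.8% and differences from -9.32 to 1.49 percentage points. The lowest of these was Piwil2, a PIWI protein, at 81.3% ± 17.8 and 72.0% ± 15.1 over a single CpG, with an edgeR adjusted p of 0.591. Among the remaining genes Zbtb32 (a zinc finger repressor), Tex14 (a protein of germ cell bridges) and Tex101 (a sperm surface protein) were at 49.0% and 46.4%, at 71.3% and 67.5%, and at 87.7% and 88.5%.

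Clusters resolved the bodies further, and the lowest p values came from inside Tdrd7 and Tex14. Of the 49 clusters 0 were called by edgeR's quasi-likelihood test, 3 having an unadjusted p under 0.05, beside 532 of 51038 (1.04%) called over the table and 9.53% under an unadjusted 0.05. The likelihood ratio test called 1, in Tdrd7, where it called 1414 clusters (2.77%) over the table, so that 1 of 49 is not above its background. Of the other tools, the quasi-binomial model and limma called 0 of 49 each. The Tdrd7 cluster lies in a coding exon, 60463 to 60477 bases past the start (chr4:46025782-46025827, plus strand) and the Tex14 cluster in an intron (chr11:87482812-87482871, plus strand). Their bases, with the measured CpGs in capitals, hold 3 and 5 CpGs.
Tdrd7: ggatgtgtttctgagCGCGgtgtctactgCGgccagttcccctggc
Tex14: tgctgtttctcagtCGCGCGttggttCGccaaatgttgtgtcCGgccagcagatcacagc

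The Tdrd7 cluster lay between 49.7% and 100% in WT (median 90.5%) and between 50.9% and 96.8% in mD3AKO (median 81.6%). Means were 89.4% ± 10.8 and 80.1% ± 10.9. In mD3AKO 18 of 23 samples were under the WT mean. The log2 odds ratio was -1.34 ± 0.47, with adjusted p values of 0.22 by edgeR's quasi-likelihood test, 0.049 by its likelihood ratio test and 0.178 by the quasi-binomial model. Differences were -14.5 percentage points in samples 1 to 25 and -4.19 in samples 26 to 50. The WT sample at 49.7% was number 47 at 10 min, and without it the quasi-binomial model gave an adjusted p of 0.0303, past the threshold. Over the refits that each left out a sample, that model called 1125 to 1398 of 51038 clusters. A call at 1 of 49 clusters is not above that background.

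The Tex14 cluster lay between 81.9% and 98.9% in WT (median 90.9%) and between 50.1% and 94.2% in mD3AKO (median 86.3%). Means were 90.7% ± 4.74 and 83.5% ± 10.5, the log2 odds ratio -0.92 ± 0.33 and the edgeR adjusted p 0.245. Differences were -9.58 and -5.03 percentage points, and 18 of 23 mD3AKO samples were below the WT mean. The third cluster by p, the 2 CpGs of Tdrd1, gave a log2 odds ratio of -1.49 ± 0.67 and an edgeR adjusted p of 0.455. Of the 178 CpGs tested singly 0 were called, and 11 (6.18%) had an unadjusted p under 0.05 beside 0.264% called and 6.35% over the table. The lowest p was at the middle CpG of the Tdrd7 cluster, 91.8% ± 10.2 in WT and 78.5% ± 13.2 in mD3AKO, with an edgeR adjusted p of 0.17.

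Exercise moved no germline promoter, body or cluster past the test. The time test (10, 30 and 60 min against rest, over both genotypes) called 0 of 18 promoters, 0 of 27 bodies and 0 of 49 clusters in edgeR, where 0, 1 and 1 had an unadjusted p under 0.05. Over the table it called 0 of 9761, 0 of 12391 and 0 of 51038 (0.0%), with 3.62%, 3.99% and 2.87% under an unadjusted 0.05. The edgeR test of genotype by time gave 0, 0 and 0 calls in the set with 0, 0 and 0 under an unadjusted 0.05. Over the table it called 0.0% of promoters, 0.0% of bodies and 0.00196% of clusters, with 3.05%, 3.4% and 2.77% under an unadjusted 0.05. The likelihood ratio test and the quasi-binomial model called 0 members for either question. Since rest and 60 min shared 1 number set and 10 and 30 min the other, the sets and these times cannot be told apart.

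Levels by time show the scatter these tests met. The order of times is rest and then 10, 30 and 60 min. The Sohlh2 promoter was at 83.1%, 85.0%, 82.5% and 83.1% in WT, and at 82.4%, 84.2%, 85.6% and 82.3% in mD3AKO. Boll was at 40.3%, 37.5%, 41.2% and 41.2% in WT and at 45.4%, 46.5%, 43.9% and 42.0% in mD3AKO. Mei1 had the lowest p of the promoters for time (0.125, edgeR, unadjusted), at 3.88%, 7.30%, 11.3% and 4.02% in WT and 9.23%, 10.6%, 8.18% and 5.53% in mD3AKO. Of its 6 contrasts with rest, WT at 30 min had an edgeR unadjusted p of 0.0244 and an adjusted p of 1. That was the 1 of 108 promoter contrasts of the set (6 per gene) under an unadjusted 0.05, beside 3.69% over the table.

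**Figure D5:**
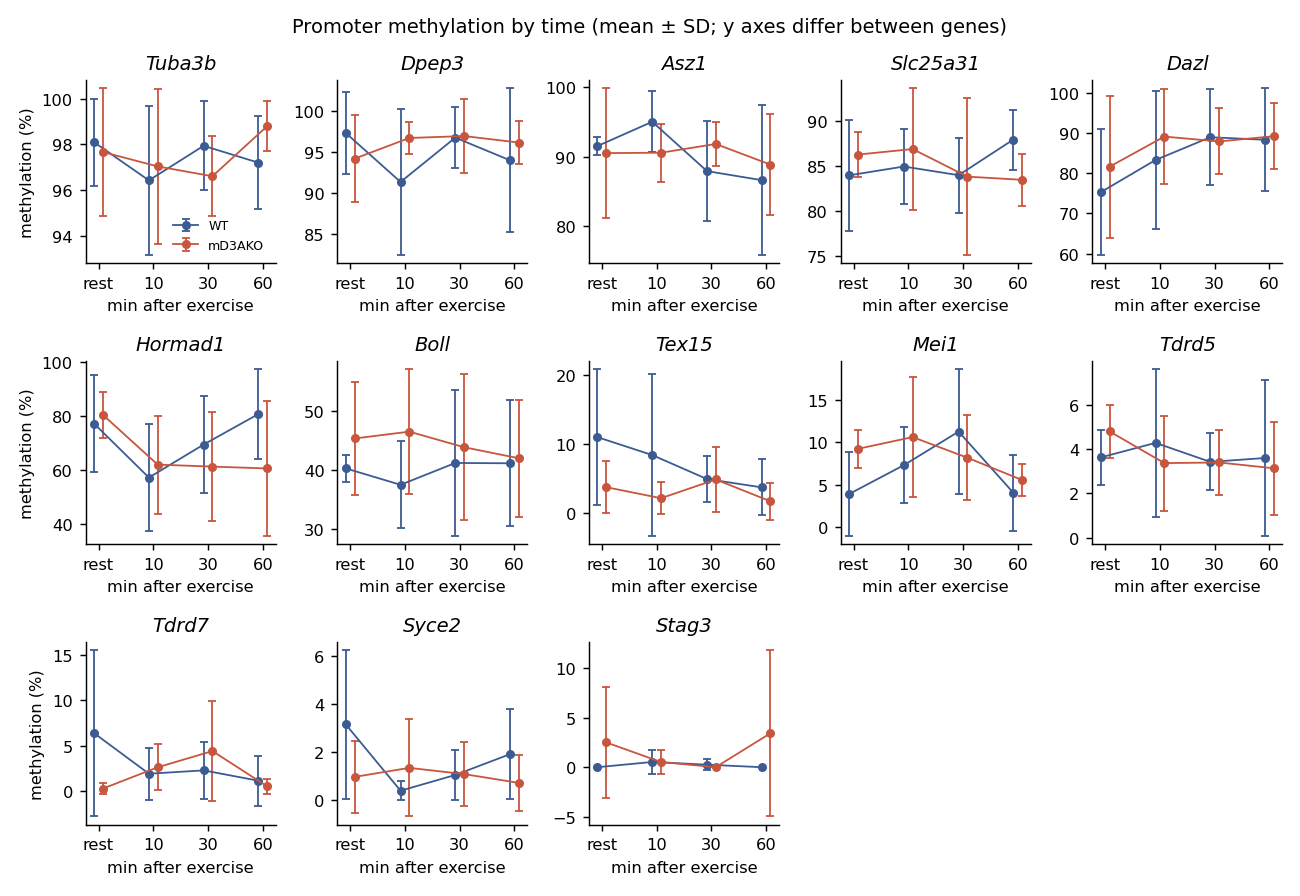
Promoter methylation of the 13 genes described in full (vertical axes, percent, scaled per gene) at rest and 10, 30 and 60 min after exercise (horizontal axes), as mean and SD of 5 to 7 samples, WT and mD3AKO. Most bars of the genotypes overlap, and Mei1 in WT runs from 3.88% at rest to 11.3% at 30 min and 4.02% at 60 min.

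Promoter windows were searched for motifs bound by MAX-type and E2F-type factors. A match is a description of the letters, not a bound site. RefSeq windows (GRCm38.p6, 250 bases before to 50 after a start) matched 44 of the 48 genes. The E-box CACGTG, its own reverse complement, was in a window of 17 of 44 genes (38.6%) and of 2187 of 27025 genes overall (8.09%). The E2F-type motif TTCCCGC, searched with its reverse complement GCGGGAA, was in 14 of 44 (31.8%) and 1429 of 27025 (5.29%). Both were in 7 of 44 (15.9%), beside 0.611%. Over genes with 18 or more CG in a window the shares were 13.2% and 12.0%, beside 56.5% and 43.5% of the 23 such members. The motifs were found on both sides of the methylation range. Of the 8 genes at 50% or more, Hormad1, Slc25a31 and Sycp1 held CACGTG, and of 5 matched genes under 10%, Stag3 and Syce2 did.

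Of other germline genes, 25 had promoter CpGs and 31 had body CpGs, with 0 called in either by edgeR (0.789% and 1.35% over the table) and 3 and 1 under an unadjusted 0.05 (8.23% and 9.79% over the table). Their WT levels ran from 0.446% to 95.4% at promoters, with 3 at 50% or more. Among 12 genes that encode silencing factors, 10 had promoter CpGs, and 1, Mga, the scaffold of PRC1.6, was called by edgeR, beside 0.789% of all promoters. This list was drawn up with earlier results of these data known, so the call is not an independent result about silencing factors. Of their 12 bodies 0 were called by edgeR's quasi-likelihood test, with 2 under an unadjusted 0.05. The Mga body held 3 CpGs, all within the span of its promoter CpGs, at 7.23% ± 9.96 in WT and 1.05% ± 1.66 in mD3AKO. Adjusted p values were 0.0998 by edgeR's quasi-likelihood test, 0.0304 by edgeR's likelihood ratio test, 0.0249 by the quasi-binomial model and 0.0185 by limma. The likelihood ratio test, the quasi-binomial model and limma called 328, 287 and 213 of 12391 bodies over the table. The Mga promoter, 14 CpGs from 116 bases before to 47 after the start, lay between 0% and 16.4% in WT (median 3.67%) and between 0% and 2.21% in mD3AKO (median 0.544%). Means were 6.71% ± 5.34 and 0.757% ± 0.69, the log2 odds ratio -3.30 ± 0.55 and the edgeR adjusted p 0.000347. All 23 mD3AKO samples lay under the WT mean. Differences were -3.11 percentage points in samples 1 to 25 and -9.06 in samples 26 to 50, with edgeR adjusted p of 0.667 and 0.0107 within them. The other 9 ran from 0.443% to 39.5% in WT, with differences from -5.92 to 0.271 percentage points.

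Of the set, 17 genes had no CpG in the table. They were Sycp2 and Sycp3 of the synaptonemal complex, the cohesin subunits Smc1b, Rec8 and Rad21l, the recombination factors Dmc1 and Msh5, the piRNA genes Mael, Tdrkh, Tex19.1 and Ddx4, the RNA-binding gene Nanos3, the transcription and chromatin genes Figla, Sohlh1 and Brdt, and Rpl10l and Tuba3a. Under their own names nothing is known here of their methylation. The CpGs near the start of Smc1b that are listed under Ribc2 are given at the end. Mov10l1, a piRNA helicase, Piwil4, Tdrd9 and Stk31 completed the measured bodies, with WT levels of 76.3%, 90.9%, 69.1% and 91.2% and mD3AKO levels of 77.8%, 90.7%, 68.0% and 91.8%.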

How the data were processed

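RRBS libraries of soleus muscle were, per the labels and methods, trimmed by the authors with Trim Galore 0.4.0 and cutadapt 1.9.1 and aligned to mm10 with Bismark 0.18.1. The authors left out samples with few aligned reads, added both strands, kept CpGs with 8 or more reads in every sample and dropped chromosomes M, X and Y. The values the authors deposited are counts of methylated and unmethylated calls, without normalization, for 44 of 50 samples. For the other 6 no columns were used here, among them 1 whose title and genotype label disagreed. Calls are not corrected for PCR duplicates, so intervals cover counting error and the spread of samples only.

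Calls were summed per promoter, gene body and cluster with the gene identifiers and clusters of the table, 13708 of 13722 identifiers being named from GENCODE M21. edgeR 4.0.16 (R 4.3.3) fitted a coefficient per sample and a log odds per group, with a common dispersion, and the genotype contrast was the mean of 4 mD3AKO groups minus that of 4 WT groups. P-values were adjusted by Benjamini-Hochberg over all features. Alternatives were the likelihood ratio test, a quasi-binomial model (pseudocount 0.5), limma 3.58.1 on log2 ratios (pseudocount 1), a minimum of 20 reads, a sex term, subsets of samples and other windows. For edgeR's quasi-likelihood alternatives and its test of single CpGs the common dispersion was estimated on every 10th feature. The likelihood ratio test used a dispersion per feature, estimated on all features. Refits of promoters and bodies that left out a sample used separate code for the same model, with the common dispersion of all samples. On all samples that code called the same 77 promoters and 167 bodies as edgeR. Its ratios were not compared with those of edgeR. Code was tested on simulated promoter counts. There edgeR's quasi-likelihood test called 7 of 100 promoters changed by a log2 odds of 1 and 54 of 100 changed by 2. Among the unchanged promoters it called 1. The changed promoters were drawn at random from all 9761, whose median WT level was 0.84% beside 43.5% in the set. The shares therefore do not give the power at the 18 promoters. Pairs of samples of a group differed by a mean chi-square of 5.94 to 13.9 per CpG. With no known repeat to compare, this value cannot show whether any sample repeats another. Each sample has its own number in the labels.

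The members and gene lists were chosen with earlier results of these data known. Statistics and sample values are given for each member called, for the 5 promoters, 3 bodies and 3 clusters with the lowest genotype p, and for the 5 promoters with the highest and the 5 with the lowest WT level.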

Additional observations from a re-analysis of the deposited data

Results flagged for a closer look

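Dixon's gap test at the 95% level was applied to 125 groups of 5 to 7 samples at the promoters and bodies described in full. In these groups 22 values, from 18 different samples, stood apart from the rest of their group. Chance gives about 1 in 20 groups only where values are normally distributed. These levels are bounded percentages, and many lie at or near an end of the scale, so the count cannot be set against that rate. At Stag3 and in part at Tdrd7 the other samples of a group tie at 0%.

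Near the floor, the Stag3 promoter was at 2.63% in mD3AKO sample 34 and WT sample 35, at 20.6% in mD3AKO sample 6, at 12.5% in mD3AKO sample 8 and at 1.27% in WT sample 44, with the rest of each group at 0%. Syce2 was at 4.85% in mD3AKO sample 39 and 3.10% in mD3AKO sample 23. The Tdrd7 promoter was at 1.30% in mD3AKO sample 21, 6.78% in WT sample 4 and 22.2% in WT sample 11. Tdrd5 was at 10.3% in WT sample 25. The Tex15 promoter was at 14.8%, 7.08% and 10.4% in mD3AKO samples 33, 10 and 2.

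At higher levels, Dazl was at 64.5% in WT sample 4, Boll at 50.3% in WT sample 47, and Dpep3 at 77.1% and 88.4% in WT samples 22 and 20. The Tdrd1 body was at 75.8%, 87.9% and 81.4% in WT samples 47, 38 and 4. The Dnmt3l body was at 100% in WT sample 4. WT sample 4 stood apart at 4 genes and WT sample 47 at 2. No cause was tested.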

How the results depend on the processing

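No paired analysis was possible because each sample number occurs once in the labels. The likelihood ratio test at single CpGs was not run. Counts of members called for genotype, time, interaction and each time against rest stayed at 0 under the alternatives run, except that the likelihood ratio test called 1 of 49 clusters for genotype (Tdrd7, log2 odds ratio -1.32, adjusted p 0.049). Leaving out each sample gave 0 to 1 called clusters (quasi-binomial model, 1 without WT sample 47 at 10 min), 0 to 0 promoters, 0 to 0 bodies and 0 to 0 CpGs (quasi-binomial model). Over the table these refits called 1125 to 1398 of 51038 clusters and 62 to 83 of 9761 promoters. They called 135 to 200 of 12391 bodies and, by the quasi-binomial model, 646 to 913 of 205304 CpGs. On all samples that model called 833 CpGs. Over the table, called features differed with the tool, from 77 (edgeR quasi-likelihood) to 188 (likelihood ratio) promoters, from 167 to 328 bodies and from 532 to 1414 clusters, and the samples at rest alone gave 0 of each.

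The median WT level of the promoters moved from 43.5% to 5.40% when CpGs needed 20 reads in every sample, where 9 of the 18 promoters were left. The median genotype difference of the promoters was 0.12 percentage points and ranged from -0.163 to 0.272 on leaving out a sample, and was -0.0733 with CpGs weighted equally.

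Of promoters far from any call, the sign of the log2 odds ratio turned in samples 26 to 50 alone for Syce2 (0.25), Stag3 (-0.76), Tdrd5 (-0.12), Tdrd7 (0.89), Dpep3 (0.64) and Tuba3b (-0.29), in samples 1 to 25 alone for Asz1 (0.22) and Slc25a31 (-0.18), at rest alone for Hormad1 (0.0555), Asz1 (0.38) and Tuba3b (-0.23), in limma for Stag3 (-0.0753) and Tuba3b (-0.0103), in the quasi-binomial model for Tdrd5 (-0.0613) and Dpep3 (0.0292), with 20 reads for Tdrd5 (-0.0206) and Tuba3b (-0.30), and within 500 bp of the start for Boll (-0.0145). Leaving out a sample gave log2 odds ratios from -0.20 to 0.0580 for Asz1, -0.0437 to 0.15 for Tdrd5, -7.08 to 5.83 for Tdrd7 (groups at 0), -0.00361 to 0.35 for Dazl, -0.0849 to 0.10 for Slc25a31 and -0.0718 to 0.28 for Tuba3b. The causes were not tested.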

Other observations

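Beside the CpGs listed under the set, 6 CpGs in the promoter window of Smc1b, a meiotic cohesin subunit, 171 to 268 bases upstream of its start, are listed in the table under Ribc2, whose promoter overlaps. Pooled over samples they were at 3.14% in WT and 4.02% in mD3AKO. A further CpG, 1021 bases upstream of the start of Tdrd1, is listed under Ccdc186 and was at 96.1% and 93.8%. These values were not part of the counts above and were not tested for Smc1b or Tdrd1.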
